A study of Mus musculus with 27 samples.

Results

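The 32 genes described here encode the enzymes that make cholesterol and fatty acids in mouse cells, together with the SREBP transcription factors and the proteins that control them. They were taken by name from a list of genes, itself drawn up with earlier results of these data known, and 32 of 32 were found among the 23393 named genes of the deposited tables, 31 under the symbol of the list and Msmo1 under its older symbol Sc4mol. RNA was sequenced from 3′ ends in B16 mouse melanoma cells and in 2 lines derived from them, clone 2 and clone 9. Each of these 2 lines is a single clone with a 3xHA tag at the end of its endogenous Tbx2. By the study's Western blot, part of the Tbx2 in clone 2 seemed to lack the tag. Each of the 3 lines was transfected with Tbx2 siRNA (siTbx2) for 48 h, transfected with control siRNA (siCtrl) for 48 h, or left untransfected, with 3 samples in each of the 9 groups and 27 in all. Tbx2 is a T-box transcription factor, and the study asked which genes depend on it in melanoma cells.

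The measurement available for each gene is the authors' mean normalized count, a single level taken over samples. It was identical in the 3 tables for every entry (largest difference 0), so it does not appear to be the level of a single line. The samples it was taken over are not named. It carries no error, no number of replicates and no value by group, and therefore no difference between siTbx2 and siCtrl, including the depletion of Tbx2 itself, is given here. The tables also hold the authors' own comparison of siTbx2 with siCtrl, which was not used. Levels of different genes are set side by side without a test, as the mean as deposited. Libraries that read 3′ ends give counts that are not expected to scale with transcript length, so the deposited mean is the main scale. The same mean per kb of transcript is given beside the ratios and the leading places as an alternative.

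Cholesterol is built from acetyl-CoA through mevalonate, isoprenoid diphosphates, squalene and lanosterol, and fatty acids are built from the same acetyl-CoA through malonyl-CoA. Srebf1 and Srebf2 encode the SREBP factors, which are made as membrane precursors. When sterols are scarce, Scap escorts them from the endoplasmic reticulum to the Golgi, where proteases release the active factor, and when sterols are abundant, the Insig proteins hold Scap back. SREBP factors bind sterol response elements and commonly act with NF-Y, which binds CCAAT boxes, and with Sp1, which binds GC boxes.

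The cells carried the RNA of the melanocyte lineage. Dct and Tyrp1, enzymes of pigment synthesis, had means of 48045 and 12501 normalized counts, and Sox10 and Mitf, transcription factors of the lineage, had 1115 and 1794. Of 4 hepatocyte markers, Alb, Apoa1 and Ttr were at 0.149, 0.184 and 1.74 and Cyp7a1 at 4.16. Of 4 fibroblast markers, Dcn and Pdgfra were at 0.0728 and 2.23 and Col1a1 and Col1a2 at 24.9 and 30.1. Of the leukocyte markers reported here, Ptprc and Cd3e were at 0.0290 and 0.138 and Cd68 at 7.09. Tbx2 had a mean of 189.7 normalized counts over samples. Over all named genes the median was 2.65, and 2524 genes had a mean of 0.

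All 32 genes lay above percentile 50 of the named genes by level, and 13 lay above percentile 90. Percentile 50 was a low bar, at 2.65 normalized counts, and the markers Col1a1, Col1a2, Cyp7a1 and Cd68 lay above it too. Among genes with a mean of at least 10, 23 of the 32 lay above percentile 50. As deposited, the means of the 32 genes ran from 10.2 normalized counts for Tm7sf2 to 3165 for Scd2, with a median of 268. The median of their percentiles among named genes was 87.1. Together they held 0.373% of the summed gene means. The sum was unevenly shared. Scd2 alone made up 21.9% of it, and Scd2, Cyp51, Fasn, Msmo1 and Hmgcs1 together made up 54.2%. Only 4 genes were above 1000, 20 were between 100 and 1000, 4 were between 50 and 100, and Tm7sf2, Fads2, Idi1 and Stard4 were under 50.

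**Figure D1:**
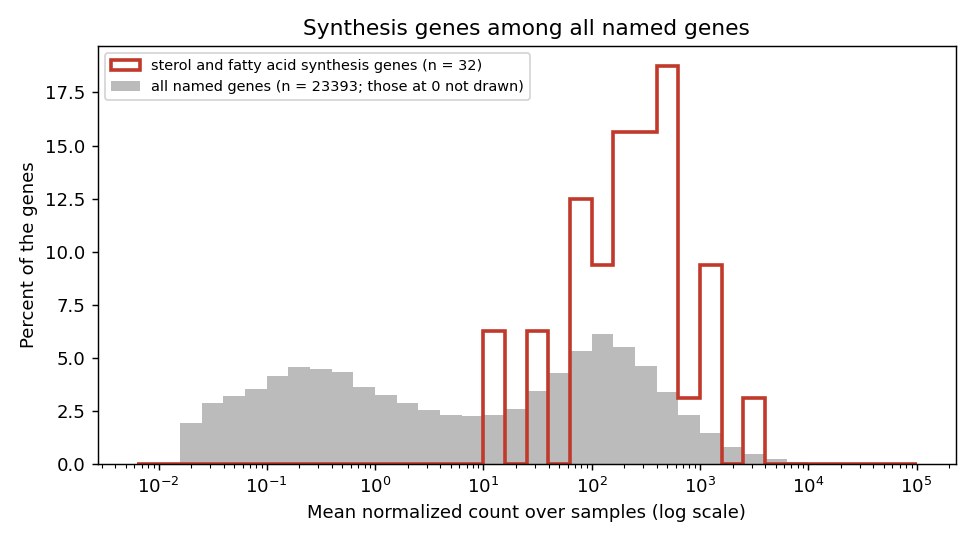
Distribution of the mean normalized count over samples (log axis) for the 32 synthesis genes (red outline) and for all 23393 named genes (grey), each as a percent of its genes, with the genes at 0 not drawn. The synthesis genes lie between 10.2 and 3165, above the median of all named genes at 2.65.

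The early mevalonate enzymes spanned a 30.1-fold range. Hmgcs1, which joins acetyl-CoA and acetoacetyl-CoA into HMG-CoA, had the highest mean of these 7 genes at 804 normalized counts, and Acat2, which makes acetoacetyl-CoA, followed at 596. Fdps, which makes farnesyl diphosphate, was at 466. Mvd, the decarboxylase that yields isopentenyl diphosphate, was at 297, above the kinases that act before it, Pmvk at 162 and Mvk at 105. Idi1, the isomerase between Mvd and Fdps, was at 26.7. Hmgcs1 was thus 30.1 times Idi1 as deposited and 26.3 times per kb. Per kb of transcript Fdps led the group at 337, with Acat2 at 265 and Hmgcs1 at 232, so the order among the leading enzymes depended on the scale while the place of Idi1 at the end (8.81 per kb) did not. Fdps is overlapped at its 3′ end by the gene model Gm43738 on the same strand, so its reads may be shared with that model. Mvd is overlapped at its 3′ end by the gene model Gm20388 on the opposite strand.

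From farnesyl diphosphate to lanosterol the levels covered a 4.99-fold range. Sqle, the squalene epoxidase and a rate-controlling enzyme of the pathway, was at 431 normalized counts, Fdft1, the squalene synthase, at 142 and Lss, the lanosterol synthase, at 86.3. Sqle was 3.04 times Fdft1 and 4.99 times Lss as deposited, and 4.08 and 8.45 times per kb. The median of these 3 genes, 142, was the lowest of the 6 steps, as it was per kb (38.3) and as the mean of log2 values. The 3′ end of Fdft1 lies opposite Ctsb, a lysosomal protease whose mean was 1466, and that of Lss lies opposite 4930483K19Rik (mean 4.27). The sources used here do not say whether reads were counted by strand, and without strand the reads of such a pair cannot be told apart.

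The steps from lanosterol to cholesterol held some of the highest genes and, as deposited, the lowest. Cyp51, the lanosterol 14-alpha-demethylase, was at 1367 normalized counts and Msmo1, the C4-methyl oxidase that acts in the steps after it, at 1214. Per kb, Msmo1 at 594 was the highest of all 32 genes and Cyp51 at 348 the third. Nsdhl and Hsd17b7, which complete the removal of the C4 methyl groups with Msmo1, were at 141 and 95.7. Ebp, the sterol isomerase, was at 509, Sc5d, the C5 desaturase, at 197 and Dhcr7, which reduces 7-dehydrocholesterol, at 202. Tm7sf2, a sterol C14 reductase, was at 10.2. Per kb it was at 6.84, above Stard4 (6.05) and Fads2 (4.35), so the lowest gene depended on the scale. Cyp51 was 133 times Tm7sf2 as deposited and 50.9 times per kb. Cyp51 overlaps Akap9 (mean 160) on the opposite strand at its 3′ end.

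Among the genes that control SREBP, Insig2 had the highest mean at 515 normalized counts, above its paralog Insig1 at 215. Both proteins retain Scap in the endoplasmic reticulum. The ratio of Insig2 to Insig1 was 2.40 as deposited and 2.40 per kb, since the longest coding transcripts of both are 2697 bases. Scap itself was at 369. Srebf2, whose product acts mainly on cholesterol genes, was at 295, and Srebf1, whose product acts mainly on fatty acid genes, was at 89.7, a ratio of 3.29 as deposited and 2.79 per kb. Srebf1 overlaps Rai1 (mean 21.2) on the opposite strand at its 3′ end, and counts of 3′ ends do not separate its SREBP-1a and SREBP-1c transcripts, which differ in their first exon. Stard4, a carrier of cholesterol between membranes, was at 30.8.

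The 3 enzymes that make palmitate had the highest median of the 6 steps as deposited, 586 normalized counts, and the median in place 2 per kb (129). Fasn, the fatty acid synthase, was at 1298 and Acly, which makes cytosolic acetyl-CoA from citrate, at 586. Acaca, the acetyl-CoA carboxylase that makes malonyl-CoA, was at 87.3, and Fasn was 14.9 times Acaca as deposited and 14.1 times per kb. These genes differ in length, with 10050 bases for Fasn, 9513 for Acaca and 4426 for Acly, and per kb Acly (132) and Fasn (129) were close to each other.

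The enzymes that modify fatty acids split within their families. Scd2 and Scd1 are stearoyl-CoA desaturases, which place the first double bond in palmitate and stearate. Scd2 was at 3165 normalized counts and Scd1 at 240.7, and the ratio was 13.2 as deposited and 11.6 per kb. Both lie on chromosome 19 of GRCm38, Scd2 from 44293674 to 44306864 on the plus strand and Scd1 from 44394455 to 44407879 on the minus strand, 87.6 kb apart. Fads1 and Fads2, desaturases of polyunsaturated fatty acids, were at 389 and 13.7, a ratio of 28.4 as deposited and 25.9 per kb. They lie on the same chromosome, Fads1 from 10182888 to 10196877 on the plus strand and Fads2 from 10062765 to 10101746 on the minus strand, 81.1 kb apart. Elovl6, which elongates palmitate, was at 329.99. With Tm7sf2 these pairs place 5 of the 32 genes on chromosome 19, the most on any of the 15 chromosomes that hold them. The share of all named genes on each chromosome was not computed, so this count has no background beside it. Paralogs can share reads where their 3′ ends are alike, and how far this affected Scd1 and Scd2 was not tested.

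**Figure D2:**
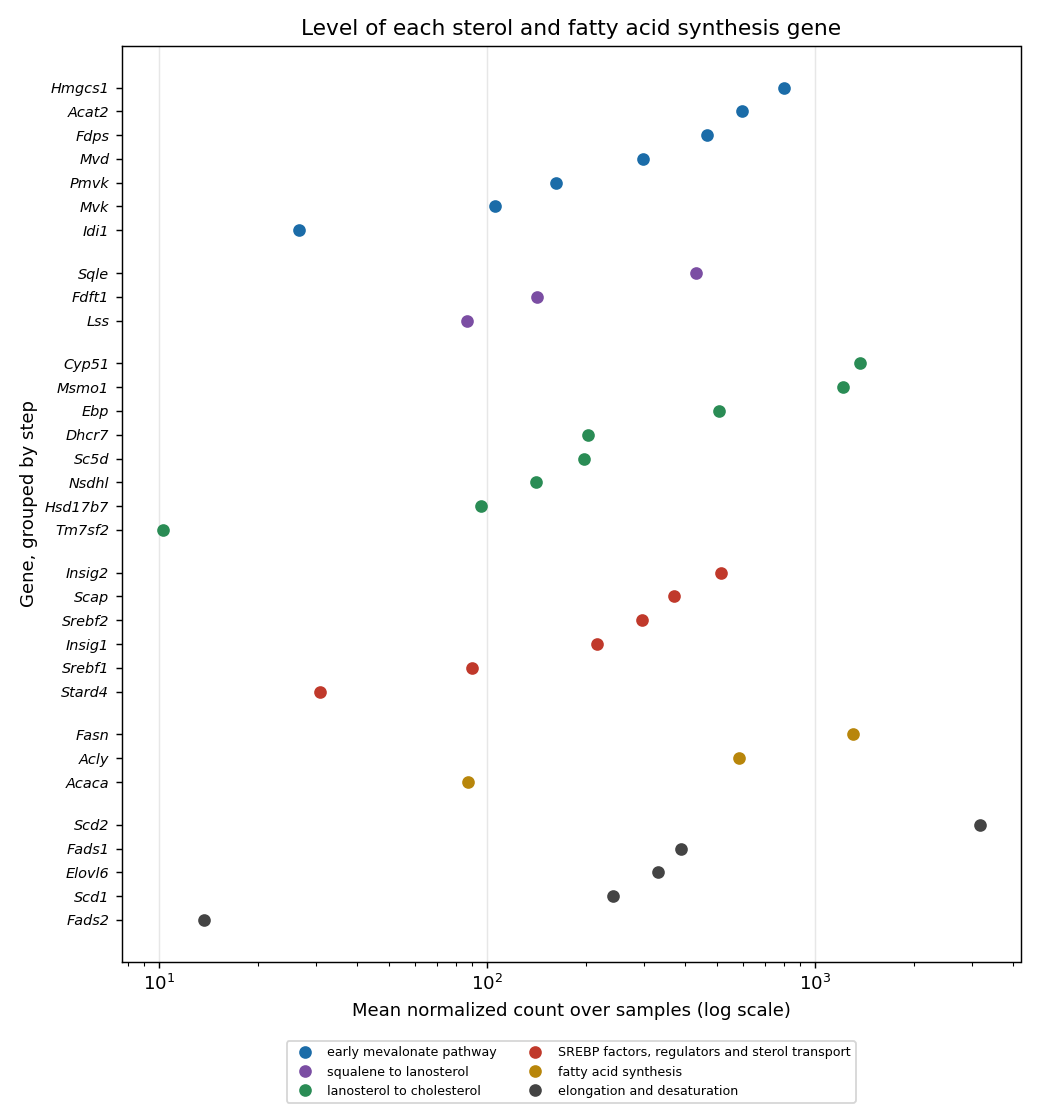
Mean normalized count over samples (log axis) of each of the 32 genes, coloured and grouped by step of the pathway, with 1 point per gene and no error, since the tables hold a single mean. Scd2 at 3165 is the highest, and Tm7sf2 at 10.2 and Fads2 at 13.7 are the lowest as deposited.

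**Figure D3:**
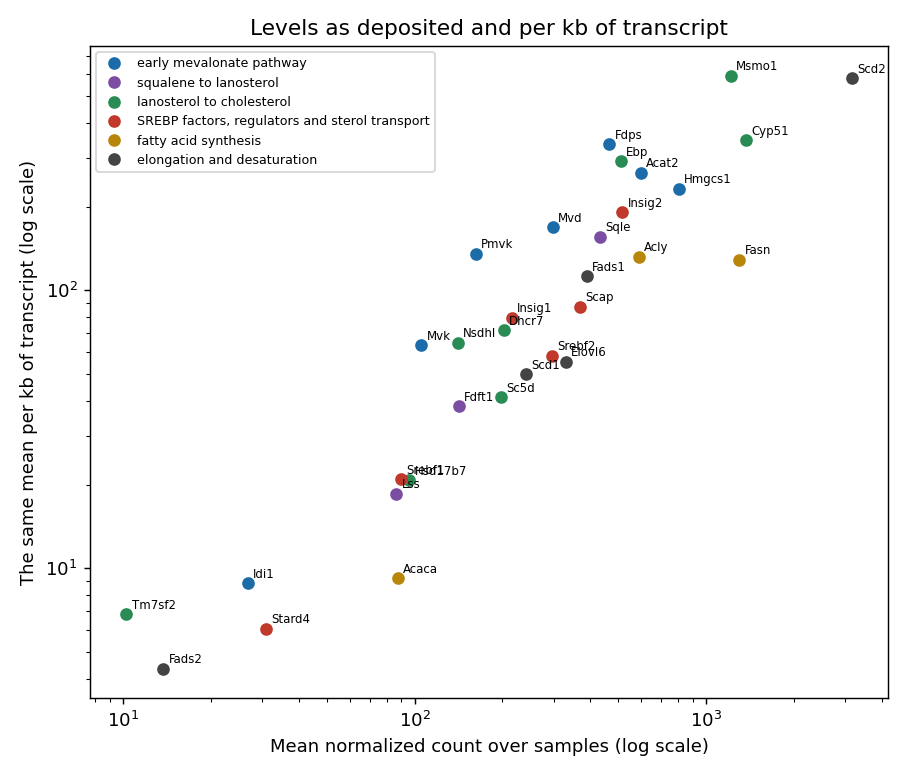
The mean normalized count of each gene as deposited (horizontal, log axis) against the same mean per kb of the longest coding transcript (vertical, log axis), coloured by step. Msmo1 (594 per kb) and Scd2 (580 per kb) lead per kb, and Fasn is in place 13 per kb and place 3 as deposited.

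Of 17 other genes of sterol and fatty acid metabolism taken from a fixed list, 15 lay above percentile 50 of the named genes, with a median of 212 normalized counts. Mbtps1 and Mbtps2, the Golgi proteases that release SREBP, were at 607 and 89.1. The elongation enzymes Elovl5, Tecr and Hsd17b12 were at 684, 310 and 721. Acss2, which makes acetyl-CoA from acetate, was at 21.3, while Me1, which supplies NADPH, was at 427. Abca1 and Abcg1, which export sterols, were at 26.7 and 0.947. Of the LXR factors that sense oxysterols, Nr1h2 was at 91.4 and Nr1h3 at 0.788. Abcg1 and Nr1h3 were the 2 genes under percentile 50.

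Promoter sequence was searched for motifs in 300 bases, 250 before and 50 after each start in RefSeq (GRCm38.p6). Both the genes and the motifs were chosen with earlier results of these data known, so the shares are descriptions only. The set of RefSeq promoters used here held 33 promoters for 25 of the 32 genes. It had no entry for Fads1, Fdft1, Fdps, Scd1, Scd2, Sqle and Stard4, so the motif shares do not cover these genes. The motifs, each read on both strands, were TCACNCCAC for a sterol response element, CACGTG for an E-box, CCAAT for a CCAAT box, GGGCGG for a GC box and TCACACC for the core of the T-box motif. CACGTG reads the same on both strands, and TCACACC lies within TCACNCCAC where N is A, so these motifs can overlap. CACGTG is the E-box that factors such as Mitf and Usf1 bind, and the study also reported it at sites bound by Tbx2. TCACACC stands for the T-box family to which Tbx2 belongs, so it is not the only motif linked to Tbx2. The sites of the E-box in 5 genes and of the sterol response element in Hmgcs1 are shown in 30 bases each, in the direction of the gene, with the motif in capitals.
Hmgcs1: cgtcaccgtcTCACCCCACttcccaggtcc
Insig1: gctgggtgaggtCACGTGgctccggtggca
Hsd17b7: ggacccttgtgtCACGTGgctccgcccctc
Sc5d: ctacgcggcgacCACGTGaccgccgcgacc
Dhcr7: cgctgtgatgaaCACGTGgcaaaaagcagc
Scap: cgccgccgggagCACGTGtggagggcggcg

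These windows lie at chr13:119690204-119690233 for Hmgcs1 (plus strand), chr5:28071299-28071328 for Insig1 (plus), chr1:169969331-169969360 for Hsd17b7 (minus), chr9:42264381-42264410 for Sc5d (minus), chr7:143823223-143823252 for Dhcr7 (plus) and chr9:110333304-110333333 for Scap (plus). The first base of the motif lay at −137 from the start of Hmgcs1, −101 from that of Insig1, −143 from that of Hsd17b7, −98 from that of Sc5d and −164 from a start of Dhcr7. In Scap it lay at 29 after a start. Of these genes with an E-box, Insig1 and Scap belong to the control of SREBP, and Hsd17b7, Sc5d and Dhcr7 act between lanosterol and cholesterol. The share of promoters with an E-box is set beside that of other genes below.

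The E-box was in 6 of 33 promoters (18.2%), against 10.3% of the 9890 promoters of genes with a mean of at least 10 and 7.15% of all 32851. The 6 include both starts of Scap, which share the site. CCAAT was in 21 of 33 (63.6%), against 38.0% and 37.4%. By gene it was in 20 of the 25, Hmgcs1, Fasn, Cyp51 and Insig1 among them. No share by gene was computed over all genes, so that count has no background beside it. GGGCGG was in 25 of 33 (75.8%), against 65.0% and 35.7%. The sterol response element as written was in 1 of 33 (3.03%), against 1.06% and 1.24%. The T-box core as written, which leaves out the A form, was in 0 of 33, against 3.07% and 3.98%. No test was run on these shares. A match is a description of the letters and not a bound site, and starts of a gene can overlap, so the 33 promoters are not independent.

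**Figure D4:**
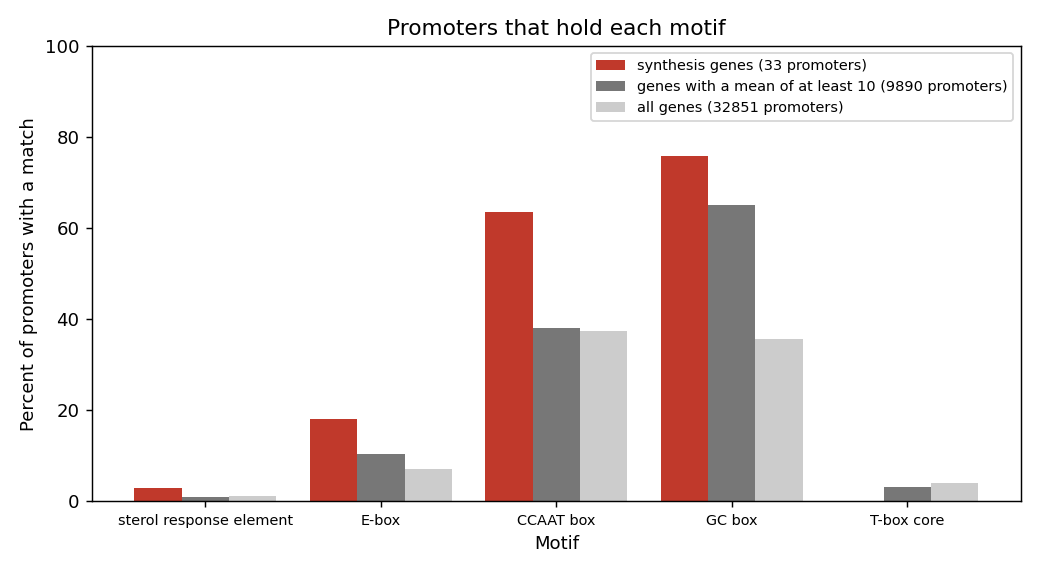
Percent of promoters with at least 1 match to each motif, for the 33 promoters of the synthesis genes (red), the 9890 of genes with a mean of at least 10 (dark grey) and all 32851 (light grey). CCAAT is in 63.6%, 38.0% and 37.4% of them.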

How the data were processed

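RNA of 27 samples was sequenced from 3′ ends. Reads were mapped by the authors against mm10 with STAR 2.6.1d after quality control in FastQC 0.11.7. Gene counts from featureCounts (Subread 1.6.2) went into the authors' DESeq2 1.28.1 model. Each of the 3 deposited tables has 1 column used here, a signal that averages the normalized counts of samples. The sources used here give neither the samples it covers nor the strand setting of the counting. The deposited tables also hold the authors' p-values, Wald statistics and log2 fold changes with standard errors for siTbx2 against siCtrl. These columns are the authors' own comparison and were not used, so no test was run. The planned test on counts per sample needs values per sample and was not made.

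Each table has 23512 entries, of which 92 spike-in transcripts (9.57% of the summed means) and 27 date-like names were left out of ranks. The gene means sum to 3880928 normalized counts, and the depth per sample is unknown. Percentiles are among named genes. Lengths are those of the longest basic coding transcript in GENCODE M21 (GRCm38), matched for 20371 genes (87.1%). Coordinates of genes, and the distances between them, are those of the whole gene in the same annotation. Genes overlapping the last 500 transcribed bases were listed. Symbols were matched through RefSeq synonyms. All members are named, with others only from lists in the design. Members, lists and motifs were chosen with earlier results of these data known. The alternatives were division by length, the entries ranked, floors of 1 and 10, and means of log2 values with a pseudocount of 1. Computing used numpy 2.4.6, pandas 2.3.3 and matplotlib 3.10.9 under Python 3.11.15, and the rank and motif functions were tested on made-up input. A marker of the lists is not reported here.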

Additional observations from a re-analysis of the deposited data

How the results depend on the processing

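No paired analysis was possible because the tables hold a single mean over samples, and leaving out replicates, other normalizations and other count tests were not run for the same reason. The median percentile of the 32 genes was 87.1 among named genes. It was 83.3 per kb of transcript, 86.996 with spike-in transcripts and date-like names kept, 77.1 among genes with a mean of at least 1 and 70.1 among genes with a mean of at least 10. The number of members above percentile 50 was 32 per kb and with all entries kept, 28 with a floor of 1 and 23 with a floor of 10. By construction a floor removes low genes from the ranking. The order of the 6 steps by median depended on the scale. Per kb the early mevalonate pathway was in place 1 (3 as deposited), fatty acid synthesis in place 2 (1), SREBP factors and regulators in place 3 (4), lanosterol to cholesterol in place 4 (5), and elongation and desaturation in place 5 (2). By the mean of log2 values lanosterol to cholesterol was in place 4 and SREBP factors and regulators in place 5. Squalene to lanosterol was in place 6 on all 3 scales. Of the members, 9 moved by 5 or more places per kb.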
